A study of Mus musculus with 8 samples.

Results

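Glutathione transferases are enzymes that detoxify reactive compounds, and 10 of their genes, of 12393 with a probe set of their own, were followed here across mouse livers that differed in a transgene for the nuclear receptor LXRα and in treatment with its agonist. The genes were chosen by symbol: Gstm1, Gstm2, Gstm3 and Gstm5 of the mu class, Gsta2, Gsta3 and Gsta4 of the alpha class, Gstp1 of the pi class, and Gstt1 and Gstt2 of the theta class. Every probe set whose only gene symbol was one of these was used, which gave 15 of the 22626 probe sets that are no controls. All 15 passed the filter on dim probe sets, as did 15838 of all probe sets. Where a gene had several, its brightest probe set outside the cross-hybridising x_at type stood for it. Other types that may share signal between genes were kept, such as the s_at probe set that stood for Gstm3.

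RNA came from the livers of 8 mice without the LDL receptor, on a C57B6 background, 8 months old, and each was measured on 1 Affymetrix array. At 10 weeks of age every mouse received an adeno-associated virus of the type labelled AAV2.8, and all later ate a Western diet for 12 weeks. In this virus the human promoter of thyroxine binding globulin, labelled as liver specific, drove either GFP or human LXRα, so the control livers carried a virus too. T0901317, a synthetic LXR agonist that also activates the pregnane X receptor, or its vehicle was injected intraperitoneally for 3 days, the agonist at 5 mg/kg. The groups are called GFP vehicle, LXRα vehicle, GFP T0901317 and LXRα T0901317, 4 in all with 2 arrays in each.

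The enzymes join glutathione to electrophiles, which makes them soluble and ready for export. Mu and alpha class enzymes are abundant in the cytosol of hepatocytes, and many of their genes are induced by NRF2, a transcription factor released under oxidative or electrophilic stress, and by the xenobiotic receptors CAR and PXR. LXRα is known for its control of sterol and fatty acid genes.

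The mu genes lie side by side on mouse chromosome 3 in the order Gstm5, Gstm7, Gstm6, Gstm3, Gstm2, Gstm1 and Gstm4. Gsta4 and Gsta2 lie on chromosome 9, Gsta3 on chromosome 1, the theta genes on chromosome 10 and Gstp1 on chromosome 19. The 250 bases before the start of transcription are shown for Gstm3 and Gstm1, mu genes with wide differences between groups, and for Gstm5 and Gstp1, whose intensities were steadier. They come from RefSeq, build GRCm38.p6, at chr3:107969175-107969424 (minus strand), chr3:108017974-108018223 (minus strand), chr3:107895604-107895853 (plus strand) and chr19:4037913-4038162 (minus strand). Capitals mark matches, on either strand, to the motifs described after them.
Gstm3: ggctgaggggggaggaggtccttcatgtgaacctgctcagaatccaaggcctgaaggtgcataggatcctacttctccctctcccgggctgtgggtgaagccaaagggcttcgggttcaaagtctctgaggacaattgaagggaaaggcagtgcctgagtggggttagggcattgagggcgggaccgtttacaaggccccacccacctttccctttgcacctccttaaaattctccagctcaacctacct
Gstm1: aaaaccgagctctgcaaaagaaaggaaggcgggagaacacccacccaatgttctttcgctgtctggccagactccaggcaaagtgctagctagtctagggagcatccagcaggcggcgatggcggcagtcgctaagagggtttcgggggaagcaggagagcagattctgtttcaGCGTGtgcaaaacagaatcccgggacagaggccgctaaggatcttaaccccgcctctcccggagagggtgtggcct
Gstm5: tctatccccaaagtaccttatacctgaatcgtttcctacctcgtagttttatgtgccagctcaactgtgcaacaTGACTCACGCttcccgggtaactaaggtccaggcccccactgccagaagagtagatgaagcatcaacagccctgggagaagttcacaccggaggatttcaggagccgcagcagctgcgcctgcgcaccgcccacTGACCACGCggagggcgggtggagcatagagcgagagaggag
Gstp1: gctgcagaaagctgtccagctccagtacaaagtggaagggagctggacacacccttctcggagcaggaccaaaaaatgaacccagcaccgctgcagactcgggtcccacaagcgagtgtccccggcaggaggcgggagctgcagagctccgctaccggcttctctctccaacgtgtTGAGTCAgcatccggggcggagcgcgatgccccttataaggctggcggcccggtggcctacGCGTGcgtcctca

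Promoters of 8 of the 10 members were matched in the RefSeq table; Gsta4 and Gstt2 were not. The antioxidant response element core TGACNNNGC, where NRF2 binds, occurred in the window of Gstm5 and of Gsta3, against 10.2% of 32851 promoters of the same length. The AP-1 element TGACTCA occurred in Gstm5 and Gstp1 (4.46% of all). The core GCGTG of the aryl hydrocarbon receptor occurred in Gsta2, Gstm1, Gstm5 and Gstp1 (28.2% of all). The hexamer AGGTCA, a site for nuclear receptors, occurred in none of the 8 (14% of all). In Gstm5 a GCGTG on the other strand overlapped the AP-1 element by 2 bases and another lay inside the antioxidant response element. The window of Gstm3 held none of these letters. A match describes letters and not a bound site.

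Across the arrays the members spread most in the LXRα vehicle group. The median array intensity lay between 21.0 and 23.2. LXRα vehicle replicate 2 was the lowest of the 8 arrays for 8 of the 10 members, against 12.9% of all probe sets. Within that group, replicate 1 lay more than 2-fold above replicate 2 for 8 members, against 3.25% of all probe sets. The ratio was 14.2 for Gsta2, 5.02 for Gstt2, 4.85 for Gsta4, 4.61 for Gstm2, 3.77 for Gsta3, 3.42 for Gstt1, 3.32 for Gstm1 and 3.01 for Gstm3, but 1.19 for Gstm5 and 0.858 for Gstp1. The within-group SD of log2 intensity was above the 90th percentile of all tested probe sets for 8 members. The members' differences against the LXRα vehicle group and the counts and medians of each gene list are therefore also given without its replicate 2, with a single array left in that group that is assumed to vary like the others. A further split ran between treatments. The β-actin 3′ to 5′ intensity ratio, a sign of RNA integrity and labelling, was 2.08 to 3.08 on the vehicle arrays, 7.56 and 11.04 on the GFP T0901317 arrays, and 2.75 and 36.3 on the LXRα T0901317 arrays. The 18S ribosomal control had an intensity of 245 to 638 with vehicle and of 11.8 to 45.3 with T0901317. The part of these differences in the results was tested only by the fits named with them.

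**Figure D1:**
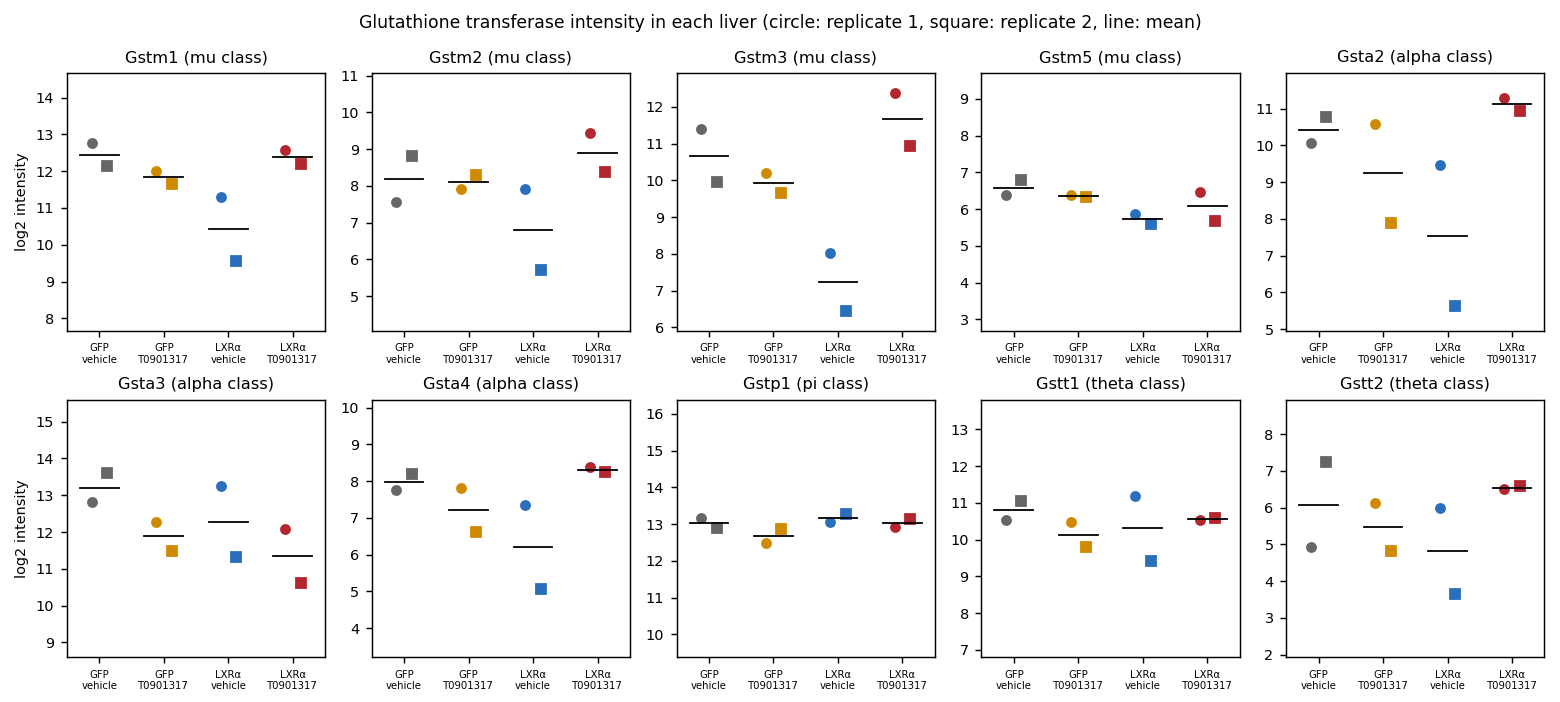
Log2 intensity (vertical axis, each panel over the same number of log2 units) of the 10 members on the 8 arrays, with 1 panel per gene, a circle and a square for the 2 arrays of a group and a line for their mean. The means of Gstm1, Gstm2, Gstm3, Gstm5, Gsta2, Gsta4 and Gstt2 were lowest in LXRα vehicle livers. Gstp1 stayed between 5789 and 9974 in deposited intensity.

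The first comparison asked how these genes stood with the LXRα transgene in the absence of added agonist. The members stood lower in LXRα vehicle than in GFP vehicle livers for 9 of 10 genes, and all 7 mu and alpha genes were among the 9. The median log2 difference was -1.32, against 0.05 over 9359 genes. None passed an adjusted p of 0.05 in limma (0.00631% of all probe sets did). At an unadjusted p under 0.05, 4 members were lower, where 2.89% of all probe sets were. The groups did not overlap for 5 members, all lower, against 13.5% of all probe sets. These 5 were Gstm1, Gstm3, Gstm5, Gsta2 and Gsta4. Without LXRα vehicle replicate 2 the median was -0.46, 7 of 10 members were lower and none was called. Gstm1 and Gstm3 were then lower at an unadjusted p under 0.05, where 1.57% of all probe sets were. The same 5 members lay apart on the lower side, against 24.1% of all probe sets. Gstt1 lay apart on the higher side, where 44.2% of all probe sets did.

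Gstm3, a mu enzyme strongly inducible by NRF2 activators in mouse liver, differed most. Its intensity was 2672 and 984 in GFP vehicle livers and 263 and 87.2 in LXRα vehicle livers. Both LXRα arrays lay below both GFP arrays. The log2 difference was -3.42 (SE 0.74, limma adjusted p = 0.58), or 10.7-fold, with a 95% interval from -5.17 to -1.68. Another probe set of Gstm3 gave -3.91 (SE 0.95, adjusted p = 0.647), but both LXRα vehicle arrays lay under the floor of 7.50 that was set for dim intensities, at 6.77 and 2.82, so that value depends on the floor. Without LXRα vehicle replicate 2 the first probe set gave -2.63.

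Gstm1, the main mu enzyme of mouse liver, read 6979 and 4498 in GFP vehicle livers against 2509 and 756 in LXRα vehicle livers. The groups did not overlap. The log2 difference was -2.02 (SE 0.54, adjusted p = 0.722), and its other 3 probe sets gave -2.14, -2.11 and -2.48. It was -1.16 without LXRα vehicle replicate 2. Probe sets of the mu genes may share signal with near-identical family members, so the split of signal among them is uncertain.

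Gstm2, another mu enzyme, read 189 and 452 in GFP vehicle livers and 240 and 52.0 in LXRα vehicle livers. These groups overlapped, and the log2 difference was -1.39 (SE 0.77, adjusted p = 0.963), or -0.28 without LXRα vehicle replicate 2. Gstm5, a mu gene better known from brain and testis, was dim, at 83.3 and 111 against 58.0 and 48.6. Its groups did not overlap, with a log2 difference of -0.85 (SE 0.31, adjusted p = 0.881). Of the mu genes it was the member that depended least on replicate 2, at -0.73 without it.

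Among the alpha genes, Gsta2, an inducible enzyme, read 1063 and 1751 in GFP vehicle livers and 700 and 49.4 in LXRα vehicle livers. The arrays did not overlap, but those of the LXRα vehicle group lay far apart. The log2 difference was -2.87 (SE 1.29, adjusted p = 0.963), and -0.96 without replicate 2. A probe set that the annotation gives to Gsta2, Gsta1 and another gene together had 1059.6 and 1644 against 199 and 29.0, and is not counted here. Gsta4, which conjugates hydroxynonenal, an aldehyde of lipid peroxidation, read 218 and 293 against 162 and 33.4. Its log2 difference was -1.78 (SE 0.73, adjusted p = 0.953), and -0.64 without replicate 2. Gsta3, an enzyme known for conjugating activated aflatoxin in mouse liver, read 7168 and 12349 against 9666 and 2567. Its groups overlapped, and its difference of -0.92 (SE 0.74) became 0.04 without replicate 2.

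Of the other classes, Gstp1, the pi enzyme, which is more abundant in male than female mouse liver, read 9224 and 7636 in GFP vehicle livers and 8558 and 9974 in LXRα vehicle livers. The groups overlapped, with a log2 difference of 0.14 (SE 0.22, adjusted p = 0.977, 95% interval -0.38 to 0.66), or 0.03 without replicate 2. Gstt1, a theta enzyme acting on small halogenated compounds, read 1486 and 2124 against 2352 and 687. Its log2 difference of -0.48 (SE 0.56) became 0.40 without replicate 2. Gstt2 was dim, at 30.3 and 150 against 63.0 and 12.6, with a difference of -1.26 (SE 0.96) that became -0.10 without replicate 2.

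**Figure D2:**
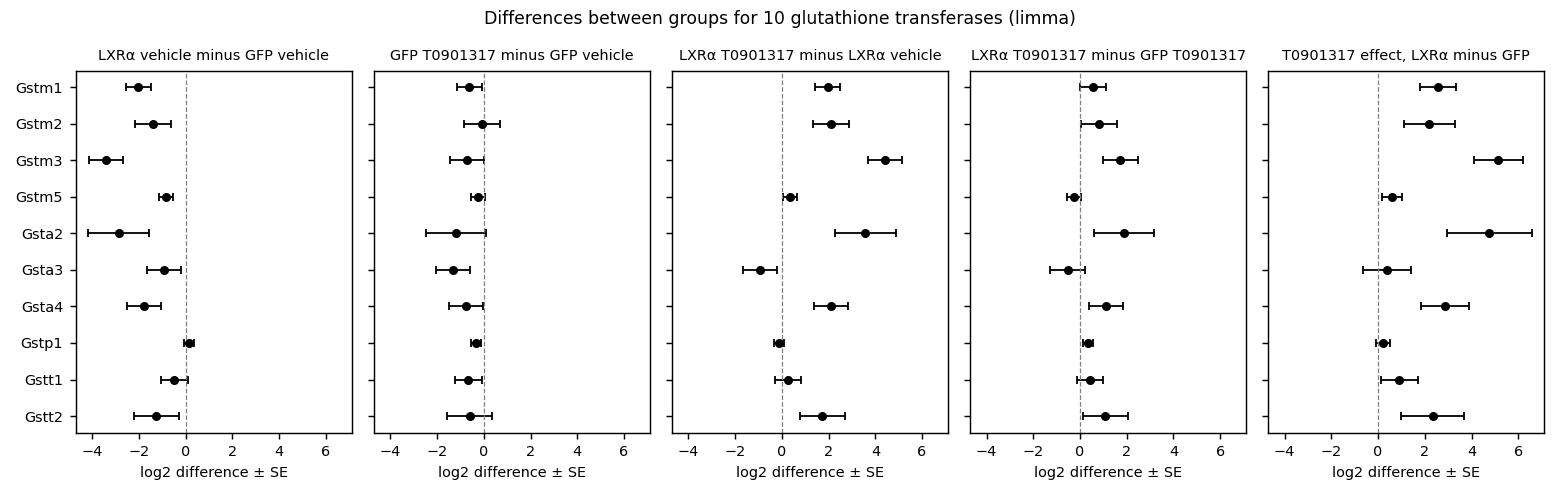
Log2 differences of the 10 members (points) with their limma standard errors (lines) in the simple comparisons and the interaction, with a vertical line at 0. With all arrays, in LXRα vehicle against GFP vehicle livers the points run from -3.42 for Gstm3 to 0.14 for Gstp1, and in LXRα T0901317 against LXRα vehicle livers from -0.93 for Gsta3 to 4.41 for Gstm3.

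The second comparison set T0901317 against vehicle in livers with the control transgene. All 10 members stood lower after the agonist, with differences from -1.32 for Gsta3 to -0.09 for Gstm2 and a median of -0.64, against -0.02 over all genes. None passed in limma, with adjusted p from 0.472 to 0.957, and no member had an unadjusted p under 0.05 (4.65% of all probe sets were lower at that p). No probe set of the array was called (0%). The groups did not overlap for 5 members, Gstm1, Gstm5, Gsta3, Gstp1 and Gstt1, where 35.2% of all probe sets did not overlap in this direction.

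Gsta3 had intensities of 4989 and 2862 after T0901317 and of 7168 and 12349 after vehicle. The log2 difference was -1.32 (SE 0.74), and its other probe set gave -0.39 (SE 0.57). Gstm1 read 4104 and 3248 after the agonist, below the vehicle arrays, with a difference of -0.62 (SE 0.54). Gstp1 read 5789 and 7510, a difference of -0.35 (SE 0.22, 95% interval -0.87 to 0.17). Gstt1 read 1433 and 885, a difference of -0.66 (SE 0.56).

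Gstm3 read 1177 and 810 after the agonist and overlapped its vehicle arrays, with a difference of -0.73 (SE 0.74, adjusted p = 0.643). Gsta2 read 1533 and 236, again 2 distant values, with a difference of -1.18 (SE 1.29) that became 0.17 without GFP T0901317 replicate 2. Gsta4 read 227 and 98.4, a difference of -0.76 (SE 0.73). Both GFP T0901317 arrays had β-actin ratios above those of all vehicle arrays. With that ratio as a covariate the differences of Gstm2, Gstm3 and Gstm5 turned positive, at 0.55, 0.14 and 0.22. That of Gsta3 moved from -1.32 to -0.36. As the fit holds group means, the slope on the ratio comes only from differences within groups. The ratio differed most within LXRα T0901317 livers, at 2.75 and 36.3, against 7.56 and 11.04 within GFP T0901317 livers. These shifts therefore rest mostly on the LXRα T0901317 arrays. The differences of Gstm2 and Gstt2 also changed sign without GFP vehicle replicate 2, to 0.54 and 0.55.

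The third comparison set T0901317 against vehicle in livers with the LXRα transgene. Here 8 of 10 members stood higher after the agonist, with a median log2 difference of 1.85, against -0.03 over all genes. None passed in limma (0.0253% of all probe sets did). At an unadjusted p under 0.05, 5 members were higher, where 7.88% of all probe sets were: Gstm1, Gstm2, Gstm3, Gsta2 and Gsta4. The groups did not overlap for 6 members, these 5 and Gstt2, all higher, against 20% of all probe sets. Without LXRα vehicle replicate 2 the median was 0.77, 7 members were higher and none was called. At an unadjusted p under 0.05 Gstm1 and Gstm3 were then higher (4.48% of all probe sets were) and Gsta3 lower (2.79% were). The same 6 members lay apart on the higher side, against 27.2% of all probe sets, and Gsta3 and Gstt1 on the lower side, against 39%. This comparison uses the LXRα vehicle arrays that also entered the first one.

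Gstm3 read 5336 and 1951 after the agonist, above both LXRα vehicle arrays at 263 and 87.2. The log2 difference was 4.41 (SE 0.74, limma adjusted p = 0.142), or 21.3-fold, with a 95% interval from 2.67 to 6.16. It was 3.62 without LXRα vehicle replicate 2. The dimmer probe set read 403 and 63.5 after the agonist, and its difference of 4.41 was taken against vehicle arrays that both lay under the floor, so the floor sets its size. Gstm1 read 6107 and 4711 and lay above both vehicle arrays. Its difference was 1.96 (SE 0.54, adjusted p = 0.235), or 1.10 without replicate 2, and its other probe sets gave 1.84, 2.28 and 2.55.

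Gstm2 read 689 and 334, above both vehicle arrays, with a difference of 2.10 (SE 0.77, adjusted p = 0.335) that was 1.00 without replicate 2. Gstm5 read 89.2 and 51.2 and overlapped the vehicle arrays, with a difference of 0.35 (SE 0.31), or 0.22 without replicate 2 of the vehicle group. It became -0.05 without LXRα T0901317 replicate 1.

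Gsta2 read 2511 and 1953, above both vehicle arrays. The difference was 3.57 (SE 1.29, adjusted p = 0.331), or 1.66 without replicate 2. Gsta4 read 332 and 306, with a difference of 2.11 (SE 0.73, adjusted p = 0.316), or 0.97 without replicate 2. Gsta3 did not go with the other alpha genes. It read 4372 and 1568 and overlapped the vehicle arrays, with a difference of -0.93 (SE 0.74), or -1.88 without replicate 2. Its second probe set gave 0.48, so the probe sets of Gsta3 disagreed in sign.

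Gstp1 read 7759 and 9086, a difference of -0.14 (SE 0.22, 95% interval -0.66 to 0.38), or -0.03 without replicate 2. Gstt1 read 1474 and 1542, a difference of 0.25 (SE 0.56) that became -0.64 without replicate 2. Gstt2 read 91.0 and 96.0, both above the vehicle arrays, with a difference of 1.73 (SE 0.96), or 0.57 without replicate 2. For Gstm1, Gstm2, Gstm3, Gsta2, Gsta4 and Gstt2, whose groups did not overlap, both LXRα T0901317 arrays lay above the vehicle arrays by definition. This is no separate check on the β-actin ratio, which was 2.75 on replicate 1 and 36.3 on replicate 2. With that ratio as a covariate, Gstm3 gave 5.18, Gsta2 4.06 and Gstm1 2.21, and Gsta3 moved from -0.93 to -0.10. The slope on that ratio came mostly from these LXRα T0901317 arrays.

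**Figure D3:**
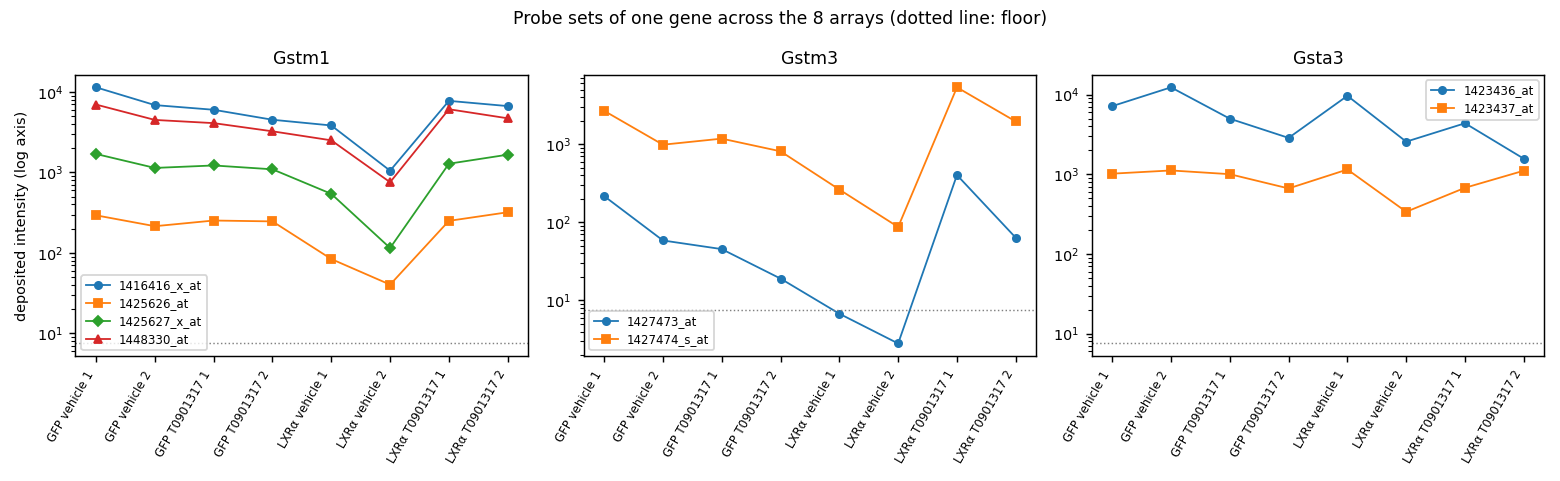
Deposited intensity (log axis) of each probe set of Gstm1, Gstm3 and Gsta3, the members with several, on the 8 arrays, with a line joining the values of a probe set only to tell probe sets apart. The 4 Gstm1 probe sets follow each other, the dimmer Gstm3 probe set drops under the floor of 7.50 on both LXRα vehicle arrays, and the Gsta3 probe sets come closest to each other on LXRα T0901317 replicate 2, at 1568 and 1109.

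Under T0901317 the transgene was compared by setting LXRα T0901317 against GFP T0901317 livers. The members stood higher for 8 of 10 genes, from -0.53 for Gsta3 to 1.88 for Gsta2, with a median of 0.68 against 0.02 over all genes. The groups did not overlap for 8 members, all higher and all but Gstm5 and Gsta3, against 10.6% of all probe sets. No member had an unadjusted p under 0.05 in the probe set that stood for it (0.865% of all probe sets were higher at that p) and every adjusted p was 1 in limma, in which no probe set was called (0%). Gstm3 had the smallest p, with 5336 and 1951 against 1177 and 810 and a difference of 1.72 (SE 0.74). The dimmer Gstm3 probe set gave 2.44 (SE 0.95) with an unadjusted p of 0.0376 and a limma adjusted p of 1. Gsta2 differed by 1.88 (SE 1.29), Gsta4 by 1.09 (SE 0.73) and Gstm1 by 0.56 (SE 0.54).

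The interaction asked whether the agonist difference was unequal between transgenes. It was positive for all 10 members, from 0.21 for Gstp1 to 5.15 for Gstm3, with a median of 2.26 against -0.03 over all genes. The interaction was not called for any member in limma (0.00631% of all probe sets were). At an unadjusted p under 0.05, 4 members were positive, Gstm1, Gstm3, Gsta2 and Gsta4, against 2.34% of all probe sets. Gstm3 had 5.15 (SE 1.04, adjusted p = 0.906), Gsta2 4.75 (SE 1.83), Gsta4 2.87 (SE 1.03) and Gstm1 2.58 (SE 0.77). Without LXRα vehicle replicate 2 these were 4.35, 2.84, 1.73 and 1.71, and Gsta3 turned from 0.39 to -0.57. The median was then 1.13 with 9 members positive, none called, and Gstm1, Gstm3 and Gsta4 at an unadjusted p under 0.05 (1.48% of all probe sets were positive at that p). Averaged over both transgenes, the agonist difference of Gstm3 was 1.84 (SE 0.52, adjusted p = 0.128), or 1.44 without that array, and no member was called where 0.568% of all probe sets were. Averaged over both treatments, 9 members stood lower with the LXRα transgene and none was called (0.00631% of all), but without LXRα vehicle replicate 2 only 4 of 10 were lower and their median was 0.21.

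The order of the group means differed between members. From high to low, Gstm3 had LXRα T0901317 first, then GFP vehicle, GFP T0901317 and at the bottom LXRα vehicle, at mean log2 intensities of 11.66, 10.66, 9.93 and 7.24. Neighbours overlapped except at the last step, where both LXRα vehicle arrays lay apart from all others. Gsta2 had the same order, at 11.11, 10.41, 9.23 and 7.54. Gsta4 had it too, at 8.32, 7.98, 7.22 and 6.20. In Gstm1 the GFP vehicle mean was above the LXRα T0901317 mean, at 12.45 and 12.39, which overlapped. For Gsta3 the GFP vehicle mean was highest and the LXRα T0901317 mean lowest, at 13.20 and 11.35. The Gstp1 means ran only from 12.69 in GFP T0901317 to 13.17 in LXRα vehicle livers.

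Other glutathione transferases on the array were set beside the members. Of 14 listed, 10 were tested, and none passed in limma in any simple comparison. In LXRα vehicle against GFP vehicle livers 9 of 10 were lower, with a median of -0.39, and after T0901317 in LXRα livers 7 were higher, with a median of 0.44. With LXRα vehicle replicate 2 left out, both turned, to 3 lower with a median of 0.14 and to 3 higher with a median of -0.33. Mgst3, a microsomal enzyme, read 130 and 224 in GFP vehicle, 81.0 and 53.7 in GFP T0901317, 53.7 and 22.1 in LXRα vehicle, and 136 and 104 in LXRα T0901317 livers. Its differences were -2.31 (SE 0.48) for the transgene with vehicle and 1.78 (SE 0.48) for the agonist in LXRα livers, or -1.67 and 1.14 without that array. Gstm4, the mu gene next to Gstm1, gave -1.19 (SE 0.52) and 1.41 (SE 0.52), or -0.60 and 0.81. Mgst1, another microsomal enzyme, read between 9591 and 11957 on all arrays.

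Genes that NRF2 is known to induce, other than the transferases, stood mostly on the same side as the members. Of 22 listed, 19 were tested. In LXRα vehicle against GFP vehicle livers 17 were lower, with a median of -0.68, and the groups did not overlap for 12 of them, against 13.5% of all probe sets. When LXRα vehicle replicate 2 was left out, 16 were lower and their median was -0.56. Non-overlap is easier to meet with a single array left, and 15 were then apart on the lower side, against 24.1% of all probe sets. Srxn1, sulfiredoxin, gave -2.06 (SE 0.46, limma adjusted p = 0.62), or -1.85 without that array. Cbr3, a carbonyl reductase, gave -2.93 (SE 0.74), with both LXRα vehicle arrays under the floor. Abcc3, an exporter of conjugates, gave -1.40 (SE 0.46), and Hmox1, heme oxygenase, -1.19 (SE 0.44), or -0.91 and -0.79 without it.

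After T0901317 in LXRα livers 16 of the 19 were higher, with a median of 0.70, and 12 did not overlap upwards, against 20% of all probe sets. With LXRα vehicle replicate 2 left out, 17 were higher and their median was 0.42. Under the easier condition of a single array, 14 did not overlap upwards, against 27.2%. Srxn1 gave 1.60 (SE 0.46), Cbr3 2.44 (SE 0.74) and Nfe2l2, which encodes NRF2 itself, 1.13 (SE 0.39), which became 1.38, 2.44 and 0.56 without that array. Gclm, the modifier subunit of the enzyme that starts glutathione synthesis, went the other way at -0.79 (SE 0.25), or -0.58 without it. In GFP livers 15 of the 19 were lower after the agonist, with a median of -0.53, among them Hmox1 at -1.59 (SE 0.44), while Keap1, the NRF2 inhibitor, stood at 1.23 (SE 0.26). None of the 19 was called in any simple comparison.

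Genes that make, recycle and break down glutathione, of which Gclc, Gclm and Gsr were also counted with the NRF2 genes, showed no common side. Of 24 listed, 19 were tested, with 11 higher and 8 lower in LXRα vehicle against GFP vehicle livers and a median of 0.07. After T0901317 in LXRα livers 12 were lower, with a median of -0.21. When LXRα vehicle replicate 2 was left out, the medians were 0.02, with 10 higher, and -0.18, with 11 lower. Ahcy, which hydrolyses adenosylhomocysteine, gave 0.72 (SE 0.22) for the transgene with vehicle, and Gpx4, a lipid peroxide reductase, -1.30 (SE 0.50), or 0.78 and -0.54 without that array. Glo1, which uses glutathione to clear methylglyoxal, gave -1.04 (SE 0.32) after the agonist in GFP livers and -1.18 (SE 0.32) in LXRα livers, where it was -1.43 without the array. Gpx1, a peroxidase, gave -0.84 (SE 0.17) in GFP livers. None was called.

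Of 18 listed targets and receptors of the CAR and PXR system, 14 were tested. They had a median of 0.67 after T0901317 in GFP livers, with 12 higher, and of 0.39 in LXRα livers, with 11 higher. The transgene with vehicle gave a median of -0.02. With LXRα vehicle replicate 2 left out, the medians were 0.18 for the agonist in LXRα livers, with 11 higher, and 0.05 for the transgene. Cyp2c55 read 4.19 and 3.93 in GFP vehicle and 4.42 and 4.23 in LXRα vehicle livers, all under the floor, then 21.4 and 6.73 in GFP T0901317 livers, the second under the floor too, and 39.7 and 43.8 in LXRα T0901317 livers. Abcc2, an exporter of conjugates into bile, gave 1.03 (SE 0.31) in GFP and 0.76 (SE 0.31) in LXRα livers, or 0.46 in the latter without that array. The members stood lower after the agonist in GFP livers, where 12 of these 14 genes stood higher. The exceptions were Cyp3a11 and Nr1i3. Cyp3a11 read 5097 and 4158 in GFP T0901317 livers against 5498 and 4627 in GFP vehicle livers. Nr1i3 read 153 and 84.5 against 225 and 264. The median of the 14 in GFP livers, 0.67, stood against -0.02 over all genes. None of them was called there, and the groups did not overlap upwards for only 4. Cyp2b10, counted as higher, read 256 and 81.5 in GFP T0901317 livers against 90.6 and 88.6 in GFP vehicle livers. A link between these genes and the members was not tested.

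Genes that mark the zones of the liver lobule were set beside the members. Cyp2c29 was counted both as a pericentral gene and with the CAR and PXR genes. Of 12 tested pericentral genes, 10 were higher in LXRα vehicle against GFP vehicle livers, with a median of 0.24, and 10 were lower after T0901317 in LXRα livers, with a median of -0.32. Of 9 tested periportal genes, 8 were higher and 7 lower in the same comparisons, with medians of 0.23 and -0.31. When LXRα vehicle replicate 2 was left out, the pericentral medians were 0.44, with 10 higher, and -0.38, with 9 lower, and the periportal ones 0.16, with 8 higher, and -0.23, with 7 lower. Oat and Slc1a2, pericentral genes, gave -1.38 (SE 0.33) and -1.23 (SE 0.23) after the agonist in LXRα livers. Hal and Pck1, periportal genes, gave -1.38 (SE 0.35) and -1.36 (SE 0.43). Without that array these 4 genes gave -1.64, -1.11, -0.98 and -1.14. None was called. By their medians both zones stood on the side opposite to the mu and alpha members, except Gsta3, which was lower after T0901317 in LXRα livers as well and stood at 0.04 for the transgene without that array.

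**Figure D4:**
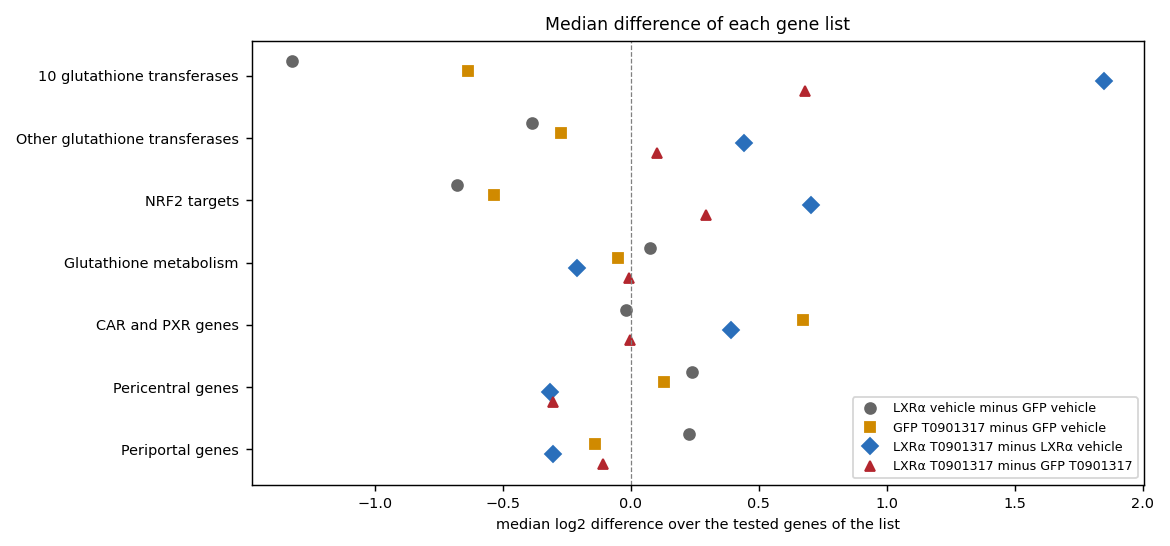
Median log2 difference over the tested genes of each list (horizontal axis) in the 4 simple comparisons (symbols), with a dashed line at 0. The members and the NRF2 targets lie at -1.32 and -0.68 for the transgene with vehicle and at 1.85 and 0.70 for the agonist in LXRα livers, with all arrays.

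Markers of the cells that liver tissue holds were measured on the same arrays. The hepatocyte markers, 6 tested, had summed intensities from 58594 to 77407, with no group standing apart. Their medians were 0.11 for the transgene with vehicle, with 4 higher, and -0.08 for the agonist in LXRα livers, with 4 lower. For the transgene with vehicle Apob stood at -1.49 and Tat at 1.07. Without LXRα vehicle replicate 2 the medians were 0.27 and -0.03, and Apob and Tat stood at -1.59 and 1.00. Macrophage markers, of which 10 were tested, were all lower in LXRα vehicle against GFP vehicle livers, with a median of -1.34. With LXRα vehicle replicate 2 left out, 8 were lower and their median was -0.64, while Marco and Vsig4 stood higher, at 0.28 and 0.15. Their summed intensity was 5545 and 7137 in GFP vehicle, 3166 and 7506 in GFP T0901317, 4109 and 1449.6 in LXRα vehicle, and 4495 and 3555 in LXRα T0901317 livers. Markers of stellate cells and matrix, 8 in all, were lower in 7 cases, their median was -0.86, and they summed to 3001 and 1720.4, 3198 and 2265, 1055 and 870.0, and 2796 and 3214 in the same order of groups.

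Without LXRα vehicle replicate 2 the stellate and matrix median was -0.91, with 7 lower. Endothelial markers, 8 tested, had 6 lower and a median of -0.32, or 6 lower and -0.06 without that array. Of the cholangiocyte markers only Sox9 and Epcam were tested, since Krt7 and Krt19 lay below the filter. After T0901317 in LXRα livers the medians were 0.88 for macrophage, 1.31 for stellate cell and matrix and 0.53 for endothelial markers, and without that array 0.18, 1.18 and 0.31. By these medians the macrophage, stellate cell and endothelial markers stood on the same side as the mu and alpha members in both comparisons. Gsta3 was the exception, at -0.93 after the agonist. Lymphocyte markers had medians of 0.14 and -0.14 in the same 2 comparisons, or 0.17 and -0.17 without that array. Erythroid ones had -0.0004 and -0.10, or 0.04 and -0.10. Cholangiocyte ones had -0.15 and 0.03, or -0.14 and 0.02. In the simple comparisons without the LXRα vehicle arrays, the sides of markers and members differed in part. For the agonist in GFP livers the medians were -0.58 for macrophage, 0.08 for stellate cell and matrix and 0.32 for endothelial markers. The members had -0.64 there. In LXRα T0901317 against GFP T0901317 livers the same markers had -0.23, 0.03 and -0.13, and the members 0.68. The part of any of these markers in the result was not tested. In whole liver, fewer cells of a type and less RNA per cell cannot be told apart.

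The genes most like Gstm3 and Gsta2, the mu and the alpha member with the widest range, were ranked by the root mean square difference of centred log2 intensity over the 8 arrays. Nearest to Gstm3 were Tmsb10 at 0.696, Ccl9 at 0.819, Col3a1 at 0.821, Id1 at 0.826, Ccnd1 at 0.829 and Gpnmb at 0.83, against a median of 1.80 over all probe sets. Tmsb10 encodes an actin-binding peptide, Ccl9 a chemokine, Col3a1 a fibrillar collagen and Gpnmb a glycoprotein of lipid-laden macrophages. Tmsb10 read 209 and 208 in GFP vehicle, 99.4 and 84.7 in GFP T0901317, 45.2 and 10.1 in LXRα vehicle, and 208 and 178 in LXRα T0901317 livers. As the gene ranked nearest, it was by that choice high and low on much the same arrays as Gstm3. The Tmsb10 probe set is of the cross-hybridising x_at type.

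Nearest to Gsta2 were Ccl9 at 0.785, Tmsb10 at 0.837, Clec14a at 0.863, Acot1 at 0.963, Cd68 at 0.965 and Cd36 at 0.968, against a median of 1.83. Cd68 is a macrophage marker, Clec14a an endothelial one, Cd36 a fatty acid transporter and Acot1 a thioesterase induced by PPARα. Among the members, the 4 probe sets of Gstm1 ranked from 12 to 28 by likeness to Gstm3, Gsta4 ranked 44, Gsta2 45 and Gstm2 89. Gstp1 ranked 10977, and the probe sets of Gsta3 ranked 14656 and 1195. LXRα vehicle replicate 2 gave the lowest intensity for Tmsb10, Ccl9, Col3a1, Id1, Ccnd1, Gpnmb, Clec14a, Acot1, Cd68 and Cd36 as well.

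**Figure D5:**
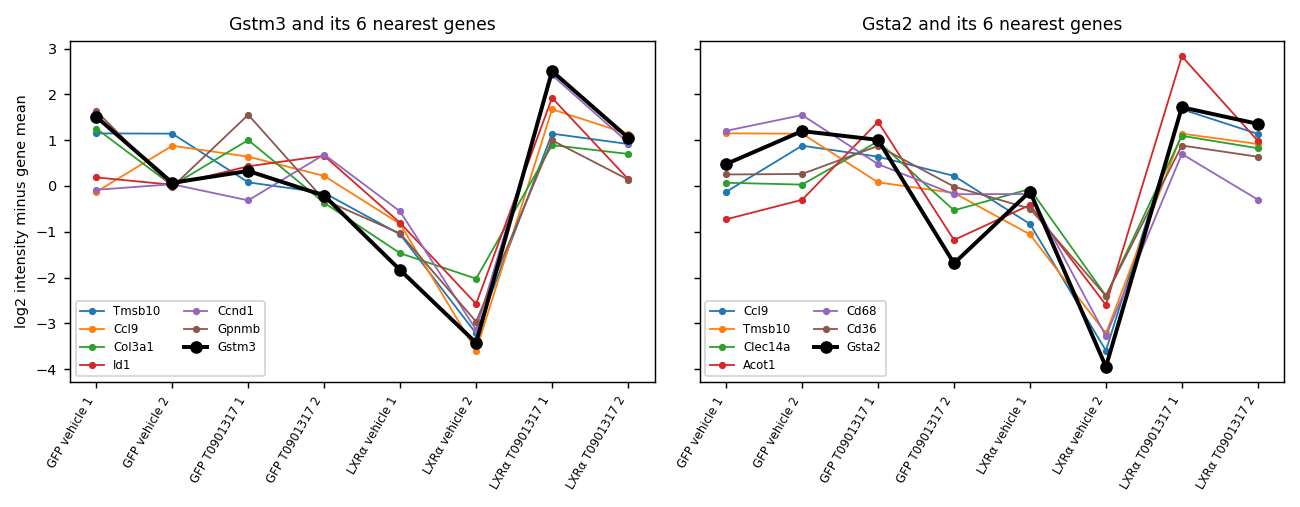
Centred log2 intensity of Gstm3 and Gsta2 (bold) and of their 6 nearest genes (thin lines) over the 8 arrays, with lines joining arrays of no set order only to tell genes apart. All reach their lowest value on LXRα vehicle replicate 2, as ranking on these same arrays favours, and Tmsb10 is nearest to Gstm3 at 0.696.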

How the data were processed

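Each array carried the liver RNA of 1 mouse, per the labels. The authors deposited a linear intensity for every probe set; how probes were summarised and arrays scaled is not given in the sources used here. P-values set a difference against the variation within groups of these mice only, with a spread shared in part over probe sets. Their precision is limited by 2 arrays a group.

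Of 22690 probe sets, 64 were controls. GEO's platform annotation gave 20380 of the other 22626 a single symbol, 691 several and 1555 none. Intensities were raised to a floor of 7.50 (20th percentile) before taking log2. Medians of the arrays differed by no more than 0.141, and no further scaling was applied. The 15838 probe sets whose mean exceeded the 30th percentile were fitted with limma 3.58.1 in R 4.3.3 as 4 group means on all 8 arrays (eBayes with a trend, 4 residual and 2.93 prior degrees of freedom). Benjamini-Hochberg adjustment covered every probe set tested, and calls needed an adjusted p under 0.05. The steps were tested on simulated data.

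Members, gene lists and tests were chosen with earlier results of these data known. Genes named beside the members were, by rule, the 6 nearest to the widest mu and alpha member. Up to 4 of each list with the smallest p in a comparison were named too. Mgst1, Cyp3a11, Apob and Tat were added after their values were seen. Alternatives were quantile normalization, centring on the array median, lower floor (5th percentile), an offset of 16, no filter, a stricter filter (50th percentile), no trend, robust spread, a replicate block, the β-actin ratio as a covariate, fitting 2 groups alone, averaging probe sets of a gene, and leaving out arrays.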

Additional observations from a re-analysis of the deposited data

How the results depend on the processing

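No member passed an adjusted p of 0.05 in limma in any comparison as reported. With the replicate number as a block (replicate block), Gstm3 passed after T0901317 in LXRα livers (log2 difference 4.41, adjusted p = 0.0448); over its other alternatives this adjusted p was 0.088 to 0.564. The labels do not pair the mice, and same-numbered arrays correlated between -0.138 and 0.247 in their deviations from group means, so the numbers were not taken as pairs. Under that block 0 probe sets were called for the interaction and 17 for the averaged agonist effect. Counts of called probe sets over the whole array were small and unstable. After quantile normalization they were 7 for the agonist in LXRα livers, 0 for the interaction and 32 for the averaged agonist effect. With the lower floor they were 0 for the interaction and 0 for the averaged transgene effect. With the offset, the agonist in LXRα livers gave 2. Without a filter the counts were 11 (transgene, vehicle), 2 (agonist, GFP), 14 (agonist, LXRα), 1 (transgene, T0901317), 8 (interaction), 15 (averaged agonist) and 7 (averaged transgene). Without a trend the agonist in LXRα livers gave 2 and the interaction 2. When the β-actin ratio entered as a covariate, the transgene under T0901317 gave 1 and the interaction 2. The averaged agonist effect then gave 4 and the averaged transgene effect 2. In the same fit the agonist differences in GFP livers turned to 0.55 for Gstm2, 0.14 for Gstm3 and 0.22 for Gstm5. Its slope came mostly from the LXRα T0901317 arrays. Fitting only 2 groups gave 0 for the transgene with vehicle and 0 for the agonist in LXRα livers. Without the 3 arrays of high β-actin ratio these were 0 and 9. Leaving out each array in turn gave 1 to 32 calls for the transgene with vehicle, 0 to 43 for the agonist in GFP livers, 0 to 474 in LXRα livers, 0 to 5 for the transgene under T0901317, 0 to 24 for the interaction, 0 to 1506 for the averaged agonist and 0 to 31 for the averaged transgene effect. Members whose difference changed sign when an array was left out had these ranges. With vehicle, the transgene difference of Gsta3 ran from -1.87 to 0.039 and of Gstt1 from -1.37 to 0.40. After the agonist in GFP livers, Gstm2 ran from -0.71 to 0.54, Gsta2 from -2.53 to 0.17 and Gstt2 from -1.76 to 0.55. After the agonist in LXRα livers, Gstm5 ran from -0.052 to 0.75, Gsta3 from -1.88 to 0.029 and Gstt1 from -0.64 to 1.13. For the transgene under T0901317, Gstm5 ran from -0.67 to 0.13 and Gsta3 from -1.27 to 0.21, and the interaction of Gsta3 ran from -0.57 to 1.34. The cause of these shifts was not tested. The counts and medians of the members and gene lists without LXRα vehicle replicate 2 were added after seeing the data.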
